A study of Mus musculus with 6 samples.

Results

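A set of 9 genes of glutathione synthesis and of its breakdown at the cell surface was followed in biliary epithelial cells of the mouse, which form the lining of bile ducts. The 9 genes were chosen by symbol: the gamma-glutamyl transferases Ggt1, Ggt5, Ggt6 and Ggt7, the synthesis and recycling genes Gclc, Gclm, Gss and Gsr, and the aminopeptidase gene Anpep. All 9 were found once each among the 25302 rows of the table, and 8 of them passed the minimum mean of 10 normalized reads set for testing. The cells came from liver and formed 2 groups of 3 samples. Control samples had the genotype Sox9fl/fl, that is, both alleles of the transcription factor gene Sox9 were flanked by loxP sites. Sox9cKO samples had the genotype Sox9fl/fl:AlbCre+/-, in which the same floxed alleles are joined by a Cre recombinase transgene under the albumin promoter. That promoter is active in the fetal precursors of both biliary cells and hepatocytes and in adult hepatocytes. The labels give no age, sex or pooling of animals, and do not say that samples came from separate animals, so the p-values below measure the spread between these samples.

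Glutathione is a tripeptide of glutamate, cysteine and glycine and the main small thiol of cells. Glutamate-cysteine ligase, made of the catalytic subunit Gclc and the modifier subunit Gclm, catalyses the rate-limiting step of its synthesis. Glutathione synthetase, Gss, adds glycine, and glutathione reductase, Gsr, returns the oxidized form to the reduced one with NADPH. At the outer face of the cell, gamma-glutamyl transferase removes the glutamyl group, and peptidases such as aminopeptidase N (the product of Anpep, also known as CD13) split the dipeptide that remains. In the bile duct the transferase sits on the apical membrane and breaks down glutathione that hepatocytes secrete into bile, and its activity in serum is a clinical marker of bile duct disease. Of the family, Ggt1 encodes the main glutathione-cleaving enzyme, Ggt5 an enzyme that acts on the leukotriene conjugate of glutathione, and Ggt6 and Ggt7 related proteins.

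Start-site sequence is shown for the genes in which a match to a motif of the glutathione pathway was found. Genes of glutathione synthesis are textbook targets of Nrf2, which binds the antioxidant response element. RefSeq windows (build GRCm38.p6) were at hand for 6 of the 9 genes, with 9 windows in all. Ggt1, which has several start sites, had 4 of them. Gclc, Gsr and Ggt5 had no window and were not searched. The 250 bases before each start were searched on both strands for the element core TGACNNNGC, the SOX core ATTGTT and the AP-1 site TGANTCA. The element core was found in 3 of the 9 windows, against 10.2% of all 32851 windows of that length. The 3 windows belong to 2 of the 6 genes, Gclm and Ggt1. The stretches below run 5′ to 3′ on the strand of the gene, with the match in capitals. They start up to 45 bases before the match and stop 45 bases after it or where an annotated exon begins. In the window of the second Ggt1 start site 28 bases lie in annotated exon, and the last base of the match is among them. Distances are to the RefSeq start.
Gclm, chr3:122245378-122245476, plus strand, match starting 134 bases before the start and read on the reverse strand: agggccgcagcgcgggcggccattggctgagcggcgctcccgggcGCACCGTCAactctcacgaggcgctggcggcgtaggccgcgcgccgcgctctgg
Ggt1, the second start site, chr10:75568581-75568634, plus strand, match starting 36 bases before the start and read on the reverse strand: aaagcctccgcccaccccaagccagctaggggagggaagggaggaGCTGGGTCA
Ggt1, the third start site, chr10:75571432-75571525, plus strand, match starting 83 bases before the start and read on the forward strand: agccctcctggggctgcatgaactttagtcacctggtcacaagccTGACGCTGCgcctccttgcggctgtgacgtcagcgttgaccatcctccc
The SOX core was found in 1 of the 9 windows, that of Ggt7, against 9.42% of all windows, and the AP-1 site in none of the 9, against 6.75%. A match describes letters only. The table counts reads per gene, so it does not show which Ggt1 start site was used.

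The libraries held between 11883496 and 16191990 reads assigned to genes, and each value below is a normalized read count (the reads of a gene over the size factor of its sample). Sox9 itself was at 6043 to 6293 in the Control samples and at 3165 to 3363 in the Sox9cKO samples, so that its transcript was lower but present (log2 fold change -0.91, limma adjusted p 0.00501). Epcam, which marks biliary cells, was at 5501 to 8249 over all samples. The 10 endothelial markers varied widely inside both groups, with summed levels of 1749 to 37775 in Control and 6263 to 39143 in Sox9cKO, and were lowest in replicate 3 of each group. All 10 had positive log2 fold changes (median 1.07) and none passed the test without the block described next, while 2 (Egfl7 and Vwf) were called higher with it. The direction rested on 1 sample: without Control replicate 3, 8 of the 10 were negative (median -0.13). Control and Sox9cKO samples that carry the same number also varied together, though samples of different number were not compared. Results of a blocked fit, with that number as the block, stand beside the unblocked ones.

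Of the 8 genes tested, 2 fell in Sox9cKO (Ggt1 and Anpep), 1 rose (Gsr) and 5 did not pass the test (limma, Benjamini-Hochberg adjusted p under 0.05 over all 17153 genes tested). Among all tested genes 2.97% were called, 2.03% higher and 0.939% lower. With the replicate block a further gene, Gclc, was called higher, which made 4 of 8 (2 higher, 2 lower) against 8.05% of all tested genes (5.06% higher, 2.99% lower). The 3 Sox9cKO values lay wholly above or below the 3 Control values in 6 of the 8 (4 higher, 2 lower), which was the case for 24.2% of all tested genes (13.4% higher, 10.8% lower). The median log2 fold change of the 8 was 0.34, against 0.036 over all tested genes.

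**Figure D1:**
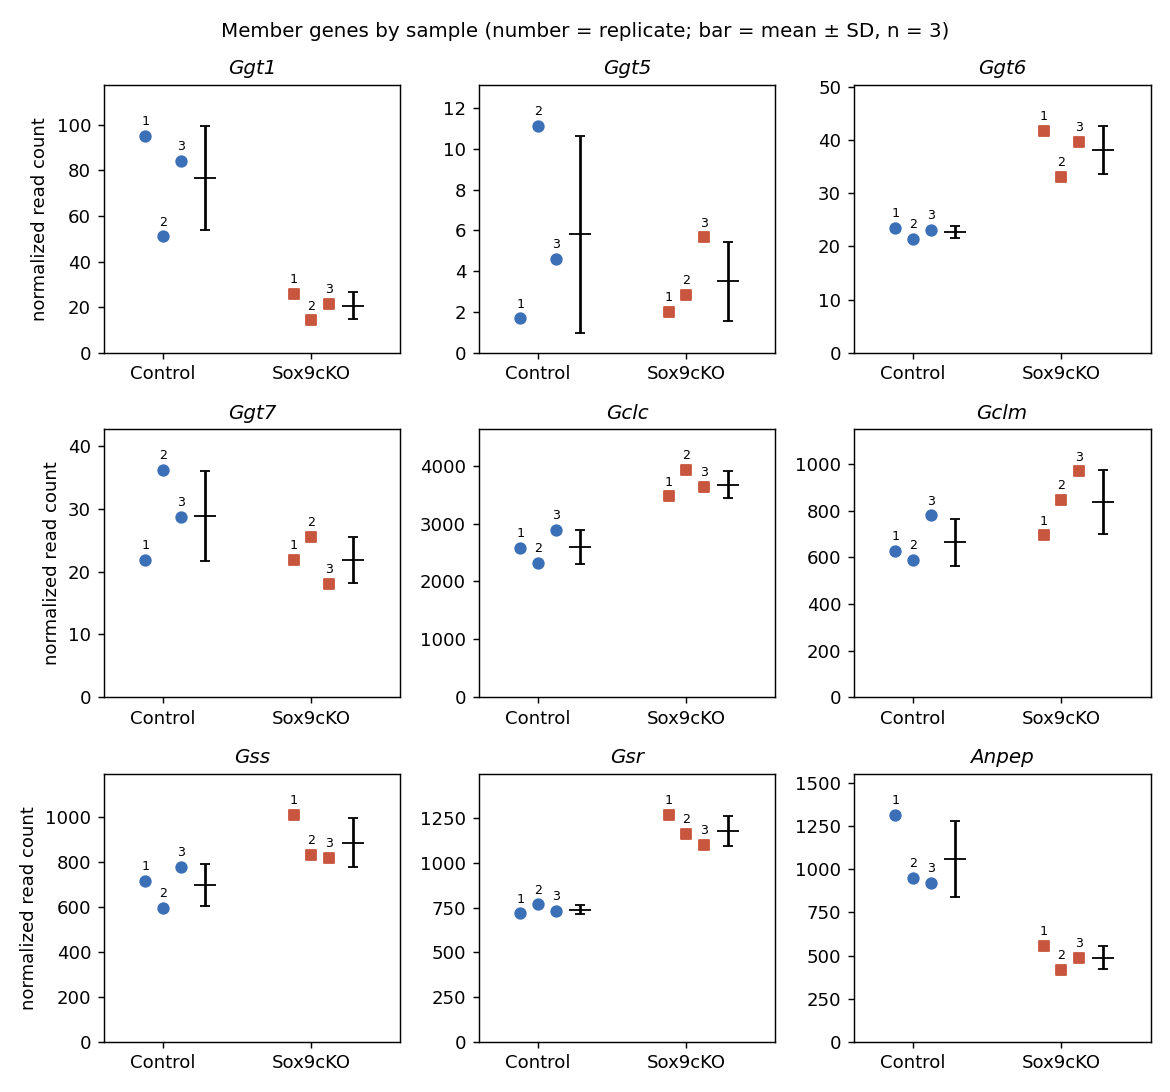
Normalized read count (vertical axes, each from 0) of the 9 genes in each sample, with Control as circles and Sox9cKO as squares, the replicate number above each point and the mean ± SD (n = 3) as a bar. Ggt1 and Anpep lie lower in all 3 Sox9cKO samples, and Ggt6, Gclc, Gss and Gsr lie higher in all 3, while the groups overlap for Ggt5, Ggt7 and Gclm.

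Ggt1 (ENSMUSG00000006345, chromosome 10), the transferase that starts the breakdown of extracellular glutathione, showed the largest change of the 8 tested genes. In order of replicate number, the Control samples stood at 94.99, 51.0 and 84.1 normalized reads and the Sox9cKO samples at 25.9, 14.2 and 21.5. Every Sox9cKO sample was below every Control sample, and within both groups replicate 2 was the lowest. The mean fell from 76.7 ± 22.9 to 20.5 ± 5.91 (SD, n = 3), that is, to 26.7% of Control. This was a log2 fold change of -1.84 with a 95% interval of -2.66 to -1.03 (adjusted p 0.0398 by limma and 0.00809 in the blocked fit). The gene was covered by few reads, 55 to 113 in Control and 15 to 26 in Sox9cKO. Counting error alone gave the lowest Control value a 95% interval of 38.5 to 66.4 and the highest Sox9cKO value one of 16.9 to 37.9 (exact Poisson). In fits that left out 1 sample the adjusted p was 0.176 without Control replicate 1, 0.146 without Control replicate 3, 0.0610, 0.103 and 0.0918 without Sox9cKO replicates 1, 2 and 3, and 0.0367 without Control replicate 2. Its log2 fold change stayed between -2.11 and -1.61 in these fits.

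None of the other family members was called, and no test compared them with Ggt1. Ggt6 (ENSMUSG00000040471, chromosome 11) was at 23.5, 21.3 and 23.0 in Control and at 41.8, 33.1 and 39.6 in Sox9cKO, with no overlap between the groups. Its mean was 22.6 ± 1.15 in Control and 38.2 ± 4.53 in Sox9cKO (SD, n = 3), from 20 to 42 reads per sample. The log2 fold change of 0.72 (95% interval 0.13 to 1.32) did not pass the test (adjusted p 0.200 by limma and 0.149 in the blocked fit).

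Ggt7 (ENSMUSG00000027603, chromosome 2) was at 21.9, 36.2 and 28.8 in Control and at 21.9, 25.5 and 18.1 in Sox9cKO. The groups overlapped, and the log2 fold change of -0.38 had an interval of -1.11 to 0.36 (limma adjusted p 0.598). Ggt5 (ENSMUSG00000006344), the neighbour of Ggt1 on chromosome 10, had 2 to 12 reads in a sample and was not tested. Its normalized read counts were 1.68, 11.1 and 4.61 in Control and 1.99, 2.84 and 5.66 in Sox9cKO, so the groups overlapped and a difference was not detectable at this depth.

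Per kilobase of annotated exon, Ggt1 was the leading transferase transcript in every Control sample and Ggt6 in every Sox9cKO sample. In Control replicate 2 the lead was small, at 15.0 for Ggt1 against 11.7 for Ggt6 and 11.1 for Ggt7. These levels came from 55, 23 and 39 reads, and counting error was not carried into the order. As a share of the summed per-kilobase level of the 4 transferases, Ggt1 made up 58.3%, 37.7% and 52.5% in Control and 20.2%, 13.6% and 18.2% in Sox9cKO. The share of Ggt6 was 27.1%, 29.6% and 27.0% in Control and 61.1%, 59.4% and 63.0% in Sox9cKO. Ggt7 held 14.0% to 27.95% in Control and 16.0% to 25.5% in Sox9cKO, which overlapped, and Ggt5 at most 4.74%. Both the lower Ggt1 value and the higher Ggt6 value enter these shares, and only the former passed the test.

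**Figure D2:**
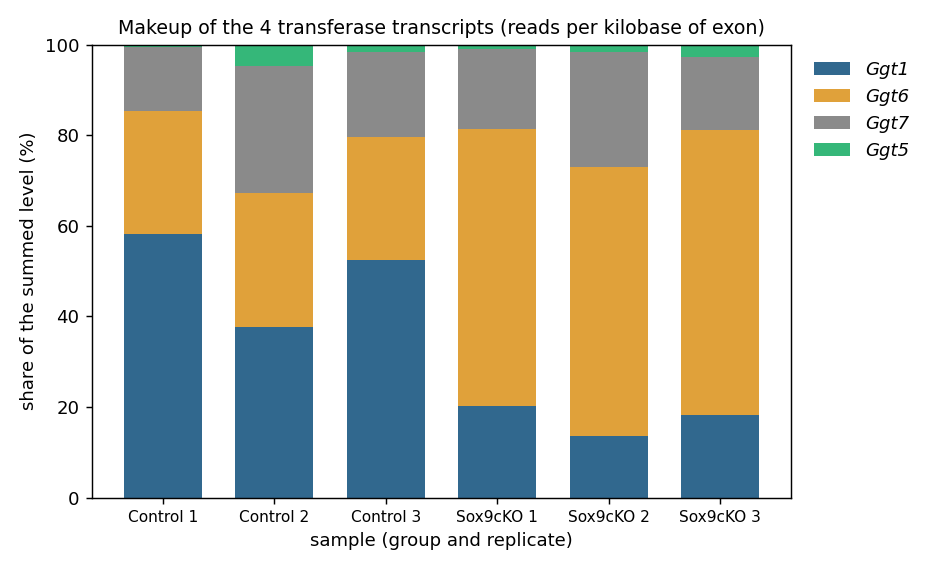
Share of each transferase transcript (vertical axis, percent of the summed reads per kilobase of exon of Ggt1, Ggt5, Ggt6 and Ggt7) in each of the 6 samples. The Ggt1 segment spans 37.7% to 58.3% in Control and 13.6% to 20.2% in Sox9cKO, while the Ggt6 segment spans 27.0% to 29.6% and 59.4% to 63.0%.

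Anpep (ENSMUSG00000039062, chromosome 7), which encodes aminopeptidase N of the apical membrane, was lower in every Sox9cKO sample than in any Control sample. The Control samples stood at 1317, 949 and 919 normalized reads and the Sox9cKO samples at 555, 419 and 488. Replicate 1 was the highest in both groups and the groups did not overlap. The mean fell from 1062 ± 222 to 487 ± 68.3 (SD, n = 3), to 45.9% of Control. On the log2 scale the fold change was -1.11, with a 95% interval of -1.54 to -0.68 (adjusted p 0.0243 by limma and 0.00360 in the blocked fit). The call was kept without Control replicate 2 (adjusted p 0.0436) and without Sox9cKO replicate 1 (0.0450), and lost without Control replicates 1 and 3 (0.0787 and 0.0575) and without Sox9cKO replicates 2 and 3 (0.0739 and 0.0769), at log2 fold changes of -1.21 to -0.95.

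Anpep is also made by myeloid cells and fibroblasts, so markers of those cells were set beside it. The 9 leukocyte and Kupffer markers in the table (of 11 listed) summed to 5272 to 5930 in Control and 6914 to 8879 in Sox9cKO, and most of that sum was Cd14. Of the 8 tested, 1 rose (Csf1r), none fell without the block, and 6 had negative log2 fold changes. With the block a further marker, the myeloid gene Lyz2, was called lower (limma adjusted p 0.0417), the direction of Anpep. The pan-leukocyte marker Ptprc was at 19.6 to 37.0 in Control and 1.13 to 16.9 in Sox9cKO. Its log2 fold change of -1.95 did not pass the test (limma adjusted p 0.266, or 0.0644 with the block). None of the 9 markers was at 0 in any sample. The 11 stellate and fibroblast markers summed to 2212 to 2971 and 2465 to 5292, which overlapped. The part of these cells in the Anpep value was not tested. In bulk samples, fewer cells of a type and less transcript per cell cannot be told apart. With an endothelial score as a covariate, added after the data were seen, Ggt1, Anpep and Gsr remained called (limma adjusted p 0.0449, 0.0247 and 0.0307). That fit called 648 of all 17153 tested genes, against 510 without the covariate. In it 2 leukocyte and Kupffer markers were called, 1 higher and 1 lower, with a list median of -0.83. The score was made from endothelial markers only.

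Hepatocytes carry much of this pathway, and some of their markers moved with the groups. The 14 hepatocyte markers summed to 22085 to 34196 in Control and to 42018 to 72242 in Sox9cKO, with no overlap. Without Apob the sums of the other 13 were 19844 to 30884 and 24835 to 39677, which overlapped. Of the 14, 4 rose (Fgb, Apob, F2 and Tat; 5 with the block, which added Ahsg), none fell, and the median log2 fold change was 0.64. Alb was at 17384 to 27683 and 21399 to 35363, Cyp2e1 at 31.6 to 128 and 31.7 to 122, and Cyp3a11 at 45.5 to 64.5 and 30.6 to 96.5, each with overlap. Asgr1, a hepatocyte surface receptor, was at 26.5 to 50.1 in Control and at 7.92 to 18.0 in Sox9cKO, wholly lower (log2 fold change -1.31, limma adjusted p 0.164), and none of the 14 was at 0 in any sample. The part of hepatocyte RNA in the higher values of Gsr, Gclc and the pathway genes below was not tested.

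On the side of synthesis and recycling, all 4 genes had positive log2 fold changes, and 1 of the 4, Gsr, passed the test. Gsr (ENSMUSG00000031584, chromosome 8) was at 718, 768 and 733 in Control and at 1269, 1161 and 1103 in Sox9cKO. The Control samples lay within a narrow range and every Sox9cKO sample was above it. The mean rose from 739 ± 25.5 to 1178 ± 84.6 (SD, n = 3), to 159% of Control. This was a log2 fold change of 0.67 with a 95% interval of 0.41 to 0.93 (adjusted p 0.02505 by limma and 0.0159 in the blocked fit). The call was lost in each fit that left out 1 sample: the adjusted p was 0.124, 0.0578 and 0.0943 without Control replicates 1, 2 and 3, and 0.0623, 0.0822 and 0.0585 without Sox9cKO replicates 1, 2 and 3, at log2 fold changes of 0.61 to 0.72.

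Gclc (ENSMUSG00000032350, chromosome 9), the catalytic subunit, was the most abundant of the 9 genes. The Control samples stood at 2580, 2317 and 2893 normalized reads and the Sox9cKO samples at 3470, 3922 and 3633, with no overlap between the groups. The means were 2596 ± 289 and 3675 ± 229 (SD, n = 3), so that Sox9cKO stood at 142% of Control. The log2 fold change of 0.51 (95% interval 0.22 to 0.79) did not pass the test without the block (limma adjusted p 0.0826) and passed it with the block (0.0468). DESeq2 on the recovered reads, which called 7.08% of all tested genes, also called it (adjusted p 0.0303). The quasi-likelihood test of edgeR, which called 2.86%, did not (adjusted p 0.114, or 0.0658 blocked).

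Gclm (ENSMUSG00000028124, chromosome 3), the modifier subunit, whose window above holds an element core, was at 628, 588 and 780 in Control and at 694, 846 and 969 in Sox9cKO. The groups overlapped, since Control replicate 3 was above Sox9cKO replicate 1. Its log2 fold change of 0.33 had an interval of -0.076 to 0.73 (adjusted p 0.380 by limma and 0.142 in the blocked fit). The ratio of Gclc to Gclm in normalized reads was 4.11, 3.94 and 3.71 in Control and 4.997, 4.64 and 3.75 in Sox9cKO, and these ranges overlapped too.

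Gss (ENSMUSG00000027610, chromosome 2), the synthetase, was at 716, 594 and 777 in Control and at 1010, 830 and 817 in Sox9cKO. The groups did not overlap, but the gap between them was smaller than the spread inside either. With a log2 fold change of 0.35 and an interval of -0.0042 to 0.70, it did not pass the test (adjusted p 0.287 by limma and 0.141 in the blocked fit). In GENCODE M21, exons of Gss and Ggt7 share 6.68% and 6.04% of their bases with Acss2 on the opposite strand. Gss also shares 5.44% and 6.51% with Gssos1 and Gssos2, and Gclm 4.71% with Gm17494, all on the opposite strand. On the same strand, 3.88% of Gclm exon bases lie in the pseudogene Gm6061. The sources used here do not say whether counting used the strand, so reads of the 3 genes in the opposite-strand overlaps are uncertain. Gclm reads in Gm6061 are uncertain with or without use of the strand.

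**Figure D3:**
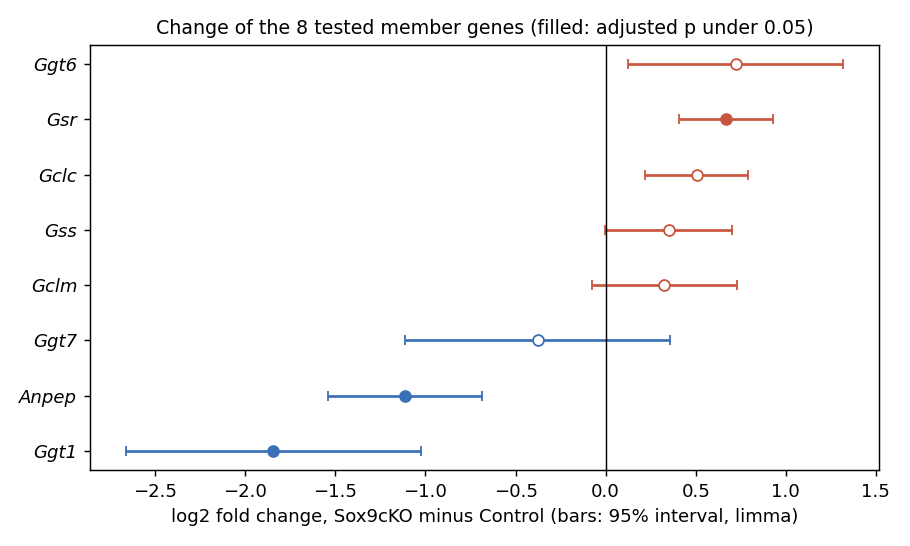
Log2 fold change, Sox9cKO minus Control (horizontal axis), of the 8 tested genes, with bars for the 95% interval from limma and filled points for adjusted p under 0.05. Ggt1 and Anpep are filled at -1.84 and -1.11, Gsr is filled at 0.67, and the open points of Ggt6, Gclc, Gss and Gclm lie between 0.33 and 0.72.

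Compared per kilobase of exon, Gclc was the leading transcript of the 9 in both groups. In Control the level was 689 ± 76.6 normalized reads per kilobase for Gclc, 268.5 ± 9.26 for Gsr, 257 ± 53.6 for Anpep, 118 ± 15.7 for Gss and 106 ± 16.1 for Gclm (SD, n = 3). Gsr and Anpep, and Gss and Gclm, did not differ beyond their spread. The transferases followed at 22.5 ± 6.71 for Ggt1, 12.45 ± 0.632 for Ggt6, 8.87 ± 2.20 for Ggt7 and 0.981 ± 0.818 for Ggt5. In Sox9cKO the order was Gclc (976 ± 60.8), Gsr (428 ± 30.7), Gss (150 ± 18.2), Gclm (133 ± 21.9), Anpep (118 ± 16.5), Ggt6 (21.0 ± 2.49), Ggt7 (6.69 ± 1.13), Ggt1 (6.02 ± 1.73) and Ggt5 (0.590 ± 0.325). Here the samples of Gss and Gclm, of Gclm and Anpep, and of Ggt7 and Ggt1 overlapped.

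Among genes of related pathways, 7 of the 114 tested genes from 8 lists rose and none fell, that is, 6.14% against 2.97% of all tested genes. With the replicate block 18 were called, 16 higher and 2 lower, that is, 15.8% against 8.05%. Their median log2 fold change was 0.22, with 83 positive and 31 negative values. The lists were written with earlier results of these data known.

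Transport of glutathione and its conjugates held the largest rise. Of 11 tested genes 2 rose and none fell, with a list median of 0.36. Abcc2, the canalicular pump for glutathione conjugates, was at 172, 74.2 and 129 in Control and at 697, 1614 and 1501 in Sox9cKO (log2 fold change 3.32, limma adjusted p 0.00761). Abcc4, a pump that can carry glutathione along with bile acids and cyclic nucleotides, was at 1022, 1266 and 1565 in Control and at 2250, 3024 and 3224 in Sox9cKO (1.15, adjusted p 0.0305). The groups did not overlap in either gene. Abcc1, another exporter of glutathione and its conjugates, had a log2 fold change of 0.36 (adjusted p 0.472).

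Of 21 tested glutathione transferases 2 rose and none fell (5 higher with the block). The median was 0.54 and 18 values were positive, against 54.2% positive over all tested genes. Gstm1 was at 1004, 1108 and 983 in Control and at 1993, 1801 and 1819 in Sox9cKO (log2 fold change 0.86, limma adjusted p 0.00898). Gstp3 went from 5.04, 12.1 and 11.5 to 92.5, 66.2 and 55.5 (2.83, adjusted p 0.0137). Both belong to clusters of close paralogs, so the division of reads among them is uncertain. Mgst1, the microsomal transferase with the highest mean among those not called, was at 0.039 (adjusted p 0.951).

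Of 23 tested peroxidases and thiol redox genes 2 rose and none fell (4 higher with the block; median 0.15). Srxn1, sulfiredoxin, which repairs overoxidized peroxiredoxins, was at 790, 749 and 923 in Control and at 2640, 1694 and 1651 in Sox9cKO (log2 fold change 1.25, limma adjusted p 0.0222). Hagh, which frees glutathione from its lactoyl conjugate, was at 272, 231 and 295 in Control and at 525, 492 and 756 in Sox9cKO (1.13, adjusted p 0.0308). In neither gene did the groups overlap.

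Of 18 tested genes of the Nrf2 system and its targets, Srxn1 alone was called with limma (median 0.19, with 14 positive values, or 11 with quantile normalization). DESeq2 called 3, Srxn1 higher and Osgin1 and Mafk lower (log2 fold changes of -0.68 and -0.40, adjusted p 0.0203 and 0.0215), and both of these lay wholly below Control. With limma these had adjusted p of 0.133 and 0.125, and both were named after their values were seen. Txnrd1, thioredoxin reductase and the most abundant gene of this list, was at a log2 fold change of 0.16 (adjusted p 0.806 by limma), and Nfe2l2, which encodes Nrf2, one of 0.055 (adjusted p 0.918). Slc7a11, the cystine importer that supplies cysteine for glutathione, was at 14.3, 26.9 and 40.3 in Control and at 151, 49.1 and 49.8 in Sox9cKO (1.49, adjusted p 0.213). Nfe2l2 and Slc7a11 were also named after their values were seen.

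Of 18 tested genes of precursor supply, Bhmt, which remethylates homocysteine, alone was called (median 0.42), against 5 with the block, 4 higher and 1 lower. It was at 34.5, 42.7 and 13.8 in Control and at 130, 167 and 162 in Sox9cKO (log2 fold change 2.43, limma adjusted p 0.0268). Glul, glutamine synthetase, was at -0.069 (adjusted p 0.868). None of the 9 NADPH-supply genes (median 0.20) and none of the 7 tested genes of glutathione breakdown (median -0.13) was called with limma, at adjusted p of at least 0.190. At an unadjusted p under 0.05 there were 2 among the former, Idh2 and Pgd, and none among the latter, and edgeR and DESeq2 without the block called 0 in both lists. With the block, Idh2 was called higher by limma and by edgeR (adjusted p 0.0239 and 0.0365), and no breakdown gene was called by either. Chac1, an intracellular glutathione-cleaving enzyme, was at 201, 682 and 1224 in Control and at 1094, 971 and 1135 in Sox9cKO (0.95, adjusted p 0.455), and Tkt, the most abundant NADPH-supply gene, had a log2 fold change of 0.20 (adjusted p 0.770).

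Among 10 other surface peptidases tested none was called with limma, and the median was 0.12. At an unadjusted p under 0.05 there were 2, Mme and Rnpep, while DESeq2 called 1 of the 10, Mme, and edgeR 0 without the block and 1, Mme, with it. Mme, neprilysin, named after its values were seen, was at 2276, 975 and 1389 in Control and at 1067, 478 and 612 in Sox9cKO. The groups overlapped, and the log2 fold change of -1.10 did not pass the test (limma adjusted p 0.191), but passed it with the block (0.00233) and in DESeq2 (0.0280). Cpd, carboxypeptidase D, had a log2 fold change of 0.071 (adjusted p 0.790).

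**Figure D4:**
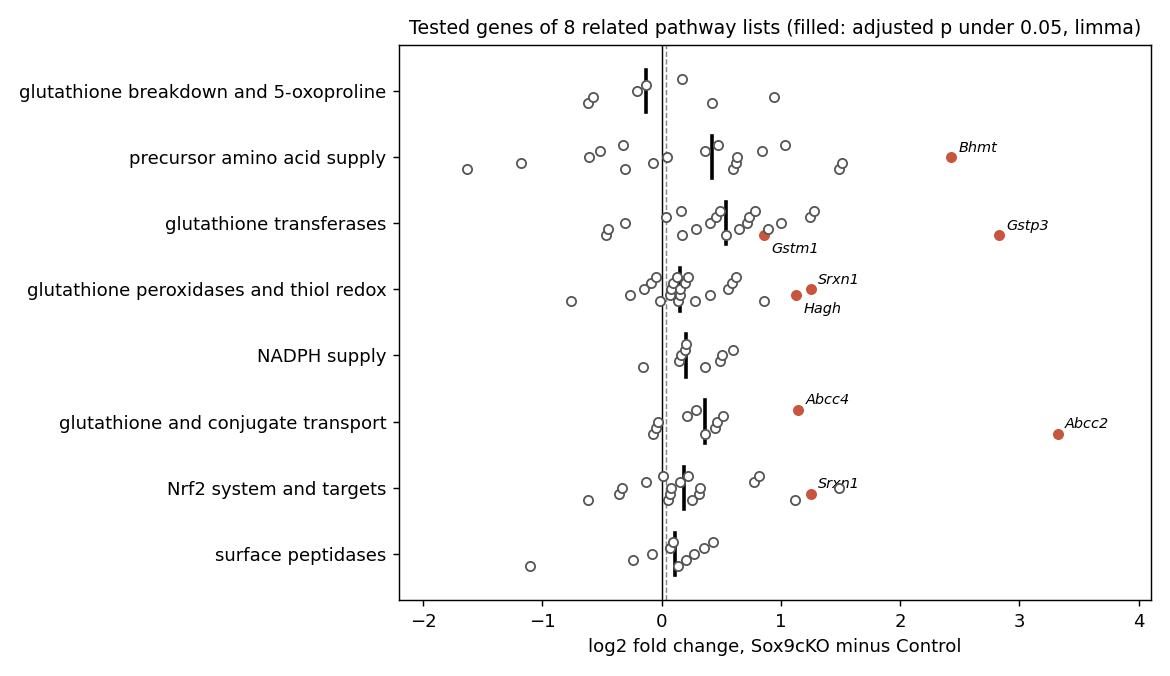
Log2 fold change, Sox9cKO minus Control (horizontal axis), of the tested genes in each of 8 related lists (rows), with filled points for limma adjusted p under 0.05, a thick line at the list median and a dashed line at the median of all tested genes (0.036). All filled points lie to the right of 0, Srxn1 appears in 2 rows, and the list medians run from -0.13 to 0.54.

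The genes whose log2 values followed those of 3 of the 9 most closely over the 6 samples were listed as a description, since many of 17153 genes separate these groups. Ggt1 was most like Upk3b (Pearson r 0.996), Tenm4 (0.995) and Kcnk5 (0.994), all lower in Sox9cKO on average. Gclc was most like Mad2l2 (0.997), Btbd11 (0.995) and Fyb2 (0.994), and Anpep most like Chdh (0.997), Shisal1 (0.996) and Bmi1 (0.996).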

How the data were processed

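RNA from 3 Control and 3 Sox9cKO samples was depleted of ribosomal RNA and made into stranded libraries with molecular identifiers, per the labels. The authors deposited a normalized signal per gene, which are read counts divided by 1 factor per sample. The submitters' processing notes name DESeq2 1.36.0 and GRCm39. The aligner, the counter, the annotation and the use of the molecular identifiers and of the strand are not given in the sources used here. Every deposited value was a whole multiple of its sample's smallest value above 0 (tolerance 0.001 reads), so whole reads were recovered for 100% of values.

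Values were transformed as log2(value + 1), which understates changes of low genes. Genes with a mean of at least 10 entered a limma fit (limma 3.58.1, R 4.3.3, intensity trend, two-sided, Benjamini-Hochberg, threshold 0.05). edgeR 4.0.16, which called 491 genes, and DESeq2 1.42.0 on the recovered counts were alternatives, as were other pseudocounts, filters and scalings, sample weights, a replicate block, and leaving out each sample. An endothelial covariate was added after the data were seen. Same-numbered samples, numbered in the titles, deviated together from their group means (correlations across genes of 0.207, 0.472 and 0.542). The numbers were taken to pair the samples. These values do not establish a pairing, since samples of different number were not compared. The limma script was tested on simulated data. Intervals from read numbers cover counting error only.

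The genes, lists and motifs were chosen with earlier results of these data known. Named genes were the 9, Sox9, called genes of each list (at most 4, by p-value), the most abundant gene not called in each list, and the nearest profiles among genes with a mean of at least 50. Other genes of the related lists are marked as named after their values were seen, except Pgd and Rnpep, named for an unadjusted p under 0.05. Cell type markers given by name were picked from their lists by no set rule and are not marked. Lists are described by counts and medians, and 1 listed gene is not reported here and was left out of them. Exon lengths and overlaps came from GENCODE M21, and start-site windows from RefSeq, both on GRCm38, while the reads were assigned on another build. Protein sequences were not used here.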

Additional observations from a re-analysis of the deposited data

How the results depend on the processing

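Directions of the 8 tested genes were the same under every alternative run, with log2 fold changes of -2.17 to -1.61 for Ggt1, -1.31 to -0.95 for Anpep, 0.57 to 0.72 for Gsr and 0.41 to 0.59 for Gclc. At a minimum mean of 50, Ggt1, Ggt6 and Ggt7 were not tested. Ggt1 lost its call with quantile normalization (-1.81, adjusted p 0.0543). Without the intensity trend Anpep (-1.11) and Gsr (0.67) lost theirs (adjusted p 0.0597 and 0.0737), and 1 of the 9 genes was called. Gclc gained a call with sample weights (0.55), DESeq2 (0.46) and the replicate block in limma (0.51). With 1 sample left out, 0 to 2 of the 9 genes and 2 to 5 of the other pathway genes were called, fewer samples being tested, with log2 fold changes of -2.11 to -1.61 for Ggt1, -1.21 to -0.95 for Anpep and 0.61 to 0.72 for Gsr.

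Over all tested genes 510 were called, 1043 with sample weights, 1214 with DESeq2, 1381 with the replicate block in limma, 1160 with it in edgeR and 199 to 387 with 1 sample left out. Of the other pathway genes, 7 were called, 4 without the intensity trend, 11 with sample weights, 17 with DESeq2, 18 with the replicate block in limma and 13 with it in edgeR. The block changed the call of no other gene among the 9 than Gclc. For these counts the cause was not tested. Quantile normalization moved the share of higher calls from 349 of 510 to 312 of 515 and the median of all genes from 0.036 to -0.031.

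Of the 7 called pathway genes, Abcc2 kept its call in 6 of the 6 fits that left out 1 sample, Gstm1 in 5, Gstp3 in 4, Srxn1 in 3, Abcc4 and Bhmt in 2 and Hagh in 1. Genes near 0 changed sign. Mgst1 was at -0.0059 with TMM factors, -0.067 with quantile normalization, -0.19 with sample weights, -0.013 with edgeR, -0.0087 with DESeq2, -0.0069 with the replicate block in edgeR and -0.10 to 0.22 with 1 sample left out. Tkt (-0.048) changed sign with sample weights, Cpd (-0.016) and Nfe2l2 (-0.037) with quantile normalization, and Nfe2l2 (-0.088) with the endothelial covariate. With 1 sample left out Glul ranged from -0.19 to 0.013, Txnrd1 from -0.076 to 0.36, Tkt from -0.15 to 0.41 and Nfe2l2 from -0.071 to 0.20. Depth limits Ggt5, Ggt6 and Ggt7, with at most 42 reads in a sample.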

Other observations

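Among all tested genes limma called 2.97% without the replicate block and 8.05% with it. With the replicate number as a block, 11 further genes of the related lists passed the test (limma with the block, 9 higher and 2 lower in Sox9cKO). All were named after their values were seen. The largest of these rises were in amino acid importers: Slc6a9, a glycine transporter, was at 88.3, 188 and 444 in Control and at 344, 551 and 920 in Sox9cKO, higher in each of the 3 numbered pairs although the groups overlapped (log2 fold change 1.52, adjusted p 0.243, or 0.00635 with the block). Slc1a4, a carrier of neutral amino acids, had a log2 fold change of 1.04 (adjusted p 0.346, or 0.0337 with the block). Slc1a1, a glutamate and cysteine importer, had a log2 fold change of -1.18 (adjusted p 0.197, or 0.0360 with the block), and Mme was the other gene with a lower value.

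The remaining 7 higher genes were Cbs (0.63), which makes cystathionine on the way to cysteine, the mitochondrial NADPH source Idh2 (0.60), the peroxiredoxin Prdx1 (0.63), the esterase Esd (0.55) and the glutathione transferases Gstm2 (0.998), Gstm5 (0.89) and Gstt2 (0.79). In each of these 7 genes, picked by a test of the same groups, the 3 Sox9cKO values lay above the 3 Control values. That was the case for 13.4% of all tested genes. Their limma adjusted p-values with the block lay between 0.0239 and 0.0482, and between 0.0640 and 0.211 without it.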
